A study of Mus musculus with 40 samples.

Results

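Mature RNA was compared between 2 inbred mouse strains, C57BL6/J and BALBc/J, in macrophages washed from the peritoneum after injection of thioglycollate broth, which provokes a sterile inflammation there, and kept in culture overnight. The comparison covers the genes of the RNA-Seq table that reached 20 exon tags per 10 M (M for mega) in at least 2 of its 6 libraries, each gene read from the transcript with the highest mean. These were 10715 of 22865 genes. The groups were 3 libraries of polyadenylated RNA per strain, 1 without treatment, 1 after 1 hr and 1 after 4 hr of 100 ng/ml KDO2-lipid A (KLA), an agonist of Toll-like receptor 4. Each strain's library was set against that of the other strain at the same treatment, and the labels name no other genotype. There was 1 library for each strain and treatment, and the labels do not say how many animals gave each one, so the p-values speak only of how these libraries vary, and that variation may be technical.

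The strains differ by inheritance at many loci that matter to macrophages. They carry different haplotypes of the major histocompatibility complex, whose class I and class II molecules show peptides to T cells, and C57BL6/J and related strains are known for a deletion at the promoter of the class II gene H2-Ea-ps. The Ifi200 genes encode DNA sensors and their relatives, the guanylate-binding proteins are GTPases that interferon induces, and the C1q chains start the classical complement pathway and coat dying cells for uptake. Macrophages make much of the body's C1q.

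C57BL6/J macrophages had more RNA of the 3 C1q chains, the C5a receptor C5ar1, the dying-cell ligand Mfge8, the lipase Lpl and the scavenger receptor Marco. BALBc/J macrophages had more RNA of the class II gene H2-Ea-ps, several class I H2-Q genes, the interferon-inducible genes Ifi202b, Gbp1, Ifi44 and H28, and the amino acid enzymes Hal, Amdhd1 and Arg2. Values are exon tags per 10 M tags of a library, given in the order no treatment, KLA 1 hr and KLA 4 hr, and are not divided by transcript length, so they compare a gene between libraries and not one gene with another. A difference is C57BL6/J minus BALBc/J on log2(tags per 10 M + 10), fitted with limma with the treatment as a term. A gene was called at a Benjamini-Hochberg adjusted p under 0.05 and a difference of at least 1. By this rule C57BL6/J had the higher level of 129 genes (1.2% of those tested) and BALBc/J of 270 (2.52%), together 3.72%. All 399 had the same sign at the 3 treatments, but the call rests on these same 3 pairs, so this is no separate support. The median difference of all tested genes was -0.08. With each library centred on its own median the split was 167 toward C57BL6/J and 214 toward BALBc/J, so C57BL6/J held 43.8% of the calls in place of 32.3%. The 3 libraries of one strain lay wholly above those of the other, whatever the treatment, in 98 of the 129 and 198 of the 270 called genes, and in 962 (8.98%) of all tested genes. Of 83 tested genes that entered through C57BL6/J libraries alone 39 were called, and of 224 that entered through BALBc/J libraries alone 80, and such genes entered because they were high in that strain. Among genes named here, Vill, Vsig8, Gpr77, Marco, Gfod1, Fcrls and 2610035D17Rik entered through C57BL6/J alone. Through BALBc/J alone entered H2-Ea-ps, H2-Q2, H2-Q10, 2410017I17Rik, Gbp1, H28, Amdhd1, Atp6v0e2, Chst10, Cx3cr1 and Cacna1a. So did D10Bwg1379e, Hebp2, Perp, Lilra5, Pira6, Nlrp1b, Nbl1, Serpina3h, Serpina3n and Serpinb1c. For all of these the filter and the call rest on the same high libraries. The median level over the 6 libraries was 106 tags in the set higher in C57BL6/J and 74.8 in the other, against 215 over all tested genes.

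Library depth was 16.98 to 20.26 M tags with 88.7 to 90.6% in gene exons. All 8 macrophage markers of the list used were detected, with summed levels of 76036 to 82555 tags in C57BL6/J and 78061 to 102414 in BALBc/J. Erythroid markers were at or under 3 tags in all libraries, as were 7 of 10 T and NK cell, 6 of 8 neutrophil, 3 of 5 eosinophil, 2 of 8 mast cell, 1 of 7 B cell and none of 7 dendritic cell markers, and none of these lists held a called gene. Summed neutrophil markers, nearly all from S100a8 (0.85), were 149 to 346 tags in C57BL6/J and 88.8 to 156 in BALBc/J. Summed B cell markers, nearly all from Cd22 (-0.25), were 555 to 1281 tags in C57BL6/J and 770.0 to 1488 in BALBc/J, with Cd79a under 9 tags in every library. Markers of mesothelial cells and fibroblasts, which line and support the peritoneum, moved with strain: all 11 tested members had negative differences, with a median of -0.87, and 4 were called higher in BALBc/J (Lum, Upk3b, Col1a1 and Dcn). Their summed level was 2748 to 4056 tags in C57BL6/J and 5475 to 6468 in BALBc/J. Col1a1, a collagen chain, was at 358, 154 and 143 in C57BL6/J and 529, 336 and 605 in BALBc/J. The part of these cells in the genes higher in BALBc/J was not tested. In bulk RNA, fewer cells of a type and less RNA per cell cannot be told apart. Markers of resident large peritoneal macrophages split, with Cd5l higher in C57BL6/J, Serpinb2 higher in BALBc/J (-1.23), and the transcription factor gene Gata6 not called (-0.96).

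**Figure D1:**
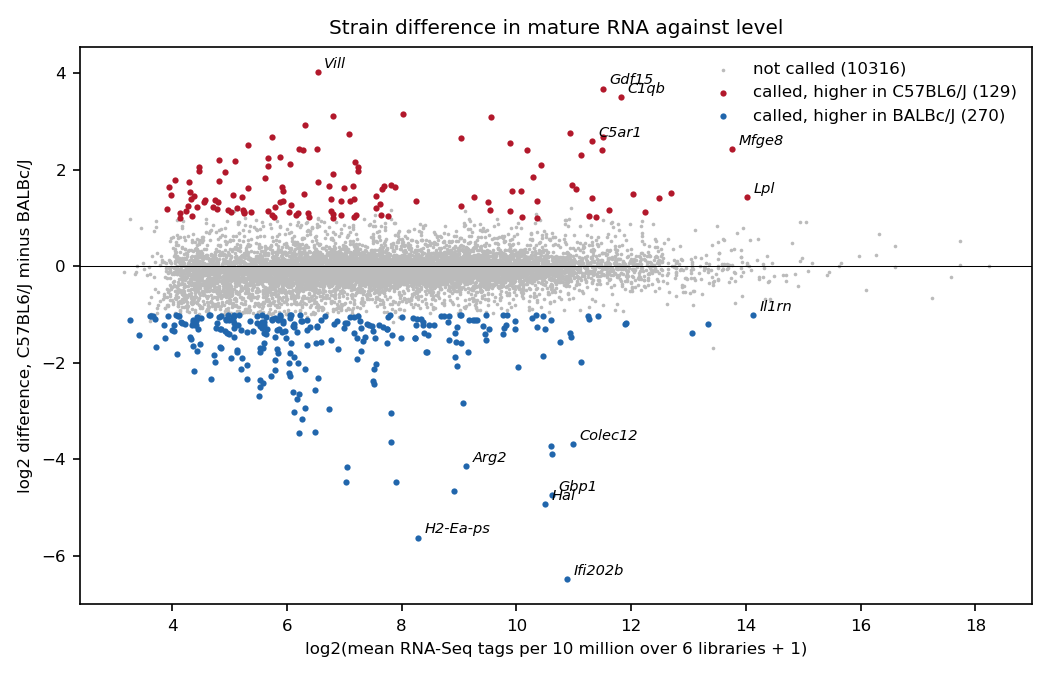
The plot sets the strain difference (vertical axis, log2, C57BL6/J minus BALBc/J) against the mean RNA-Seq level over the 6 libraries (horizontal axis, log2 of tags per 10 M plus 1), 1 point per tested gene. The 129 genes called higher in C57BL6/J are red, the 270 higher in BALBc/J are blue and the 10316 others are grey, and the largest differences, from Ifi202b at -6.47 to Vill at 4.02, occur at middle levels.

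Complement genes were called in both directions. Of 18 tested members C57BL6/J had the higher level of 4 and BALBc/J of 3, with a median of -0.59 beside -0.08 over all genes. The chains of C1q, which form its recognition unit, were higher in C57BL6/J. C1qb was at 6448, 6599 and 6858 in C57BL6/J and 598, 782 and 406 in BALBc/J, a difference of 3.51 ± 0.19 (SE, adjusted p = 5.9e-05) and 11.4-fold on this scale. C1qc was at 3499, 3609 and 3142 in C57BL6/J and 564, 599 and 358 in BALBc/J (2.76 ± 0.16 (SE, adjusted p = 6.0e-05)). C1qa was at 2313, 2105 and 2237 in C57BL6/J and 574, 602 and 390.0 in BALBc/J (2.09 ± 0.17 (SE, adjusted p = 3.4e-04)). In all 3 genes every C57BL6/J library was above every BALBc/J library, and in BALBc/J the lowest library was that of KLA for 4 hr. The genes lie side by side on chromosome 4 between 136436060 and 136454759 (mm9, minus strand), in the order C1qb, C1qc, C1qa, with no other tested gene between them.

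C5ar1, the receptor of the chemoattractant fragment C5a, was at 2349, 5384 and 5368 in C57BL6/J and 316, 917 and 1019.9 in BALBc/J (2.59 ± 0.15 (SE, adjusted p = 6.0e-05)). It was higher after KLA than before in both strains, and the BALBc/J library after 4 hr was below the untreated C57BL6/J library. Its neighbour on chromosome 7, Gpr77, encodes the second C5a receptor and was at 139, 136 and 39.8 in C57BL6/J and 10.9, 13.3 and 10.2 in BALBc/J (2.26 ± 0.28 (SE, adjusted p = 0.00282)), named here after its values were seen. The members higher in BALBc/J were C2 and Cfb, the paired proteases of the classical and alternative pathways, and C4b, all 3 inside the histocompatibility region of chromosome 17. C2 was at 19.5, 16.8 and 22.6 in C57BL6/J and 102, 95.4 and 132 in BALBc/J (-2.01 ± 0.16 (SE, adjusted p = 2.9e-04)), and Cfb at 76, 65 and 2549.5 in C57BL6/J and 216, 196 and 4773 in BALBc/J (-1.25 ± 0.17 (SE, adjusted p = 0.00349)). C4b was low, at 21.9, 7.86 and 8.17 in C57BL6/J and 38.6, 22.9 and 43.9 in BALBc/J (-1.02 ± 0.21 (SE, adjusted p = 0.0218)).

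The promoters of C1qb and C1qc are shown because the gene cluster moved as one and PU.1, the lineage factor of macrophages, was bound near its starts. The sequences are the 250 bases before each start from RefSeq on GRCm38.p6, which represents C57BL6/J, so they show no base of BALBc/J. C1qb is at chr4:136886201-136886450, - strand, and C1qc at chr4:136892915-136893164, - strand. C1qa had no entry. Capitals mark the PU.1 core GAGGAA on either strand.
C1qb: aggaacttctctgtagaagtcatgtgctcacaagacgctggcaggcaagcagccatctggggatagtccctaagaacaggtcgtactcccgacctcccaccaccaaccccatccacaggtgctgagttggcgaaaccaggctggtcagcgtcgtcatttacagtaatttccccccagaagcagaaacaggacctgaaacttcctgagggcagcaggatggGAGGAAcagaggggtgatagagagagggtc
C1qc: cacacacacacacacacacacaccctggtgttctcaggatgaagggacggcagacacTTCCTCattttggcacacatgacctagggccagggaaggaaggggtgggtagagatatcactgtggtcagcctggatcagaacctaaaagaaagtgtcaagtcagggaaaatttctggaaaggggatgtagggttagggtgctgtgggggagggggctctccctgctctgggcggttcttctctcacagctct
Each holds 1 match, and 23.3% of 32851 RefSeq promoter windows of this length hold at least 1. PU.1 peaks lay within 1000 bp of the C1qb start in every list, with 241 and 259 tags in C57BL6/J (untreated, KLA 1 hr) and 87.3 and 46 in BALBc/J. At C1qc they held 309.8 and 277 tags, and 238 and 187. Peak tags are the authors' own values, from 1 library per strain and treatment.

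The 6 genes with the most tags among those higher in C57BL6/J each showed the difference at all treatments. Mfge8, a secreted bridge between dying cells and phagocytes, was at 28924, 21459 and 19949 in C57BL6/J and 4991, 4936 and 3219 in BALBc/J (2.43 ± 0.14 (SE, adjusted p = 6.8e-05)). Lpl, which releases fatty acids from lipoproteins, was at 28327, 27399 and 17074 in C57BL6/J and 10906, 9438 and 6486 in BALBc/J (1.44 ± 0.12 (SE, adjusted p = 3.9e-04)). Fabp4, a fatty acid carrier, was at 8661, 18860.0 and 1900.5 in C57BL6/J and 2562, 7322 and 699.5 in BALBc/J (1.52 ± 0.14 (SE, adjusted p = 6.5e-04)). In these genes the strain gap held while the level moved with KLA: Fabp4 was highest at 1 hr and lowest at 4 hr in both strains. The lysosomal protease gene Ctsk was at 8823, 9514 and 6688 in C57BL6/J and 3589, 3646 and 2290.1 in BALBc/J (1.41 ± 0.13 (SE, adjusted p = 6.5e-04)), and the acid phosphatase gene Acp5 at 2148, 3232 and 14895 in C57BL6/J and 1011, 1599.8 and 6049.5 in BALBc/J (1.13 ± 0.13 (SE, adjusted p = 0.00207)). Slamf7, a receptor of the SLAM family, was at 3132, 3981 and 9587 in C57BL6/J and 799.8, 964 and 6765 in BALBc/J (1.50 ± 0.28 (SE, adjusted p = 0.0151)), and after 4 hr the strains were closer than before. It was the only called gene of 9 tested SLAM genes (median 0.37).

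Scavenger receptors, which bind modified lipoproteins and microbial surfaces, moved both ways. Of 11 tested, 2 were higher in C57BL6/J and 1 in BALBc/J (median 0.02). Marco was at 94.4, 72.2 and 129 in C57BL6/J and 8.15, 7.09 and 4.59 in BALBc/J (2.68 ± 0.21 (SE, adjusted p = 3.2e-04)), under the 20 tags of the filter in every BALBc/J library, so that it entered the test through C57BL6/J alone. Cd5l, a secreted member of the scavenger receptor superfamily, was at 1902, 1722 and 1230.3 in C57BL6/J and 316, 286 and 205 in BALBc/J (2.54 ± 0.14 (SE, adjusted p = 5.4e-05)). Colec12, a collagen-like scavenger receptor with a lectin domain, ran the other way, at 335, 335 and 193 in C57BL6/J and 4502, 4069 and 2775 in BALBc/J (-3.68 ± 0.14 (SE, adjusted p = 9.4e-06)). The groups of these 3 genes did not overlap. Cd36, a receptor for oxidised lipoproteins, was higher at every treatment in C57BL6/J and stayed under the size needed for a call (0.91 ± 0.12).

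Of 23 tested macrophage identity genes 1 was called, Mertk, the kinase receptor that recognises dying cells, at 1088, 757 and 1097 in C57BL6/J and 307, 192 and 903 in BALBc/J (1.33 ± 0.30 (SE, adjusted p = 0.0297)). Its gap was nearly closed after 4 hr. The median of that list was 0.06. Of 20 tested genes of sterol synthesis and LXR targets 18 had positive differences, the median was 0.37, and 1 was called, the cholesterol exporter Abca1 (1030.3, 932 and 1104 in C57BL6/J and 461, 308 and 643 in BALBc/J, 1.16 ± 0.18 (SE, adjusted p = 0.00672)). Without the KLA 1 hr pair Abca1 was at 0.96 and not called.

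**Figure D2:**
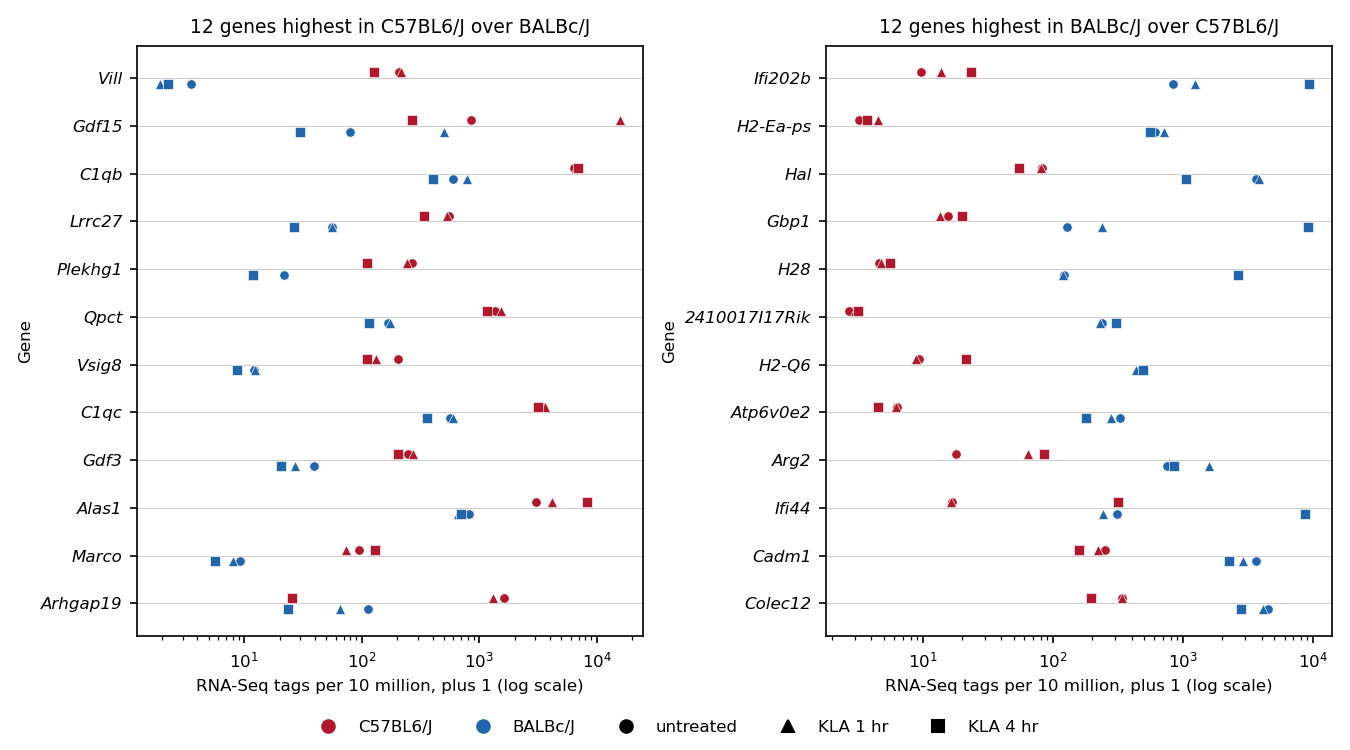
Tags per 10 M plus 1 (horizontal axis, log scale) are shown in each of the 6 RNA-Seq libraries for the 12 genes with the largest fitted difference in each direction, with C57BL6/J in red, BALBc/J in blue and the treatment as the symbol. The strains are separate in all of these genes at all treatments except Arhgap19 after KLA for 4 hr, where the libraries were at 24.3 and 22.4 tags.

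Other genes with large differences toward C57BL6/J had varied roles. Vill, a villin relative that belongs to the actin-binding proteins, was at 207, 213 and 125 in C57BL6/J and 2.53, 0.93 and 1.22 in BALBc/J (4.02 ± 0.19 (SE, adjusted p = 3.0e-05)), near the floor of detection in BALBc/J. Gdf15, a stress-induced hormone of the TGF-beta family, was at 851, 15809 and 265 in C57BL6/J and 78.8, 504 and 28.8 in BALBc/J (3.68 ± 0.35 (SE, adjusted p = 7.3e-04)). Both strains had the most Gdf15 after 1 hr and the least after 4 hr, and the largest gap was at 1 hr. Gdf3, another ligand of that family, was at 244, 272 and 204 in C57BL6/J and 37.9, 25.9 and 19.7 in BALBc/J (2.74 ± 0.17 (SE, adjusted p = 1.0e-04)). Alas1, the first enzyme of haem synthesis, was higher after KLA than before in C57BL6/J and lower in BALBc/J, at 3029, 4129.6 and 8196 in C57BL6/J and 821, 655 and 698 in BALBc/J (2.68 ± 0.27 (SE, adjusted p = 9.6e-04)). Alad, the next enzyme of that path, was the called haem gene in the other direction, at 124, 105 and 59.4 in C57BL6/J and 283, 316 and 121 in BALBc/J (-1.19 ± 0.17 (SE, adjusted p = 0.00515)). These 2 were the calls among 23 tested haem and iron genes (median 0.01).

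Qpct, which forms pyroglutamate at the ends of peptides and chemokines, was at 1347, 1535 and 1166 in C57BL6/J and 165, 174 and 114 in BALBc/J (3.09 ± 0.15 (SE, adjusted p = 3.0e-05)). Lrrc27 was at 550.0, 535 and 335 in C57BL6/J and 54.6, 54.8 and 25.4 in BALBc/J (3.16 ± 0.15 (SE, adjusted p = 3.0e-05)), Plekhg1 at 267, 244 and 110.2 in C57BL6/J and 20.7, 10.6 and 10.9 in BALBc/J (3.11 ± 0.22 (SE, adjusted p = 1.7e-04)) and the immunoglobulin-like gene Vsig8 at 202, 132 and 109 in C57BL6/J and 11.2, 11.4 and 7.75 in BALBc/J (2.93 ± 0.18 (SE, adjusted p = 9.4e-05)). In each the lowest C57BL6/J library was above the highest BALBc/J library. Arhgap19 was at 1630.2, 1299.8 and 24.3 in C57BL6/J and 113, 64.8 and 22.4 in BALBc/J (2.65 ± 0.66 (SE, adjusted p = 0.0453)). There the strains were apart without treatment and after 1 hr, and level after 4 hr. Arhgap19 was not called by limma without the filter (adjusted p = 0.171), with a minimum of 100 tags in 2 libraries (0.0599) or with a mean of 20 tags (0.055).

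Genes of antigen presentation held some of the largest differences in favour of BALBc/J. Of 22 tested class I and peptide-loading genes 4 were higher in BALBc/J and 1 in C57BL6/J, and of 8 class II genes 1 in each direction, with medians of 0.08 and 0.47. H2-Ea-ps, a class II chain gene, was at 2.23, 3.49 and 2.68 in C57BL6/J and 605, 713 and 551 in BALBc/J (-5.62 ± 0.16 (SE, adjusted p = 3.5e-06)). C57BL6/J was at the floor at all treatments and the BALBc/J libraries were alike. The class I gene H2-Q6 was at 8.35, 7.79 and 20.5 in C57BL6/J and 472, 432 and 489 in BALBc/J (-4.46 ± 0.18 (SE, adjusted p = 1.7e-05)), H2-Q10 at 7.31, 6.36 and 7.65 in C57BL6/J and 147, 129.7 and 157 in BALBc/J (-3.17 ± 0.15 (SE, adjusted p = 3.0e-05)) and H2-Q2 at 2.02, 0.879 and 1.16 in C57BL6/J and 45.3, 51.3 and 46.2 in BALBc/J (-2.34 ± 0.16 (SE, adjusted p = 1.5e-04)). These H2-Q genes are near copies of each other, so the tags of one may come from another. All reads were placed on mm9, the C57BL6/J genome, and what this did to BALBc/J counts at such loci was not tested. 2410017I17Rik, near them on chromosome 17, was at 1.69, 2 and 2.15 in C57BL6/J and 238, 228 and 305 in BALBc/J (-4.47 ± 0.16 (SE, adjusted p = 9.4e-06)).

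In the other direction, H2-DMb1, a chain of the molecule that edits class II peptides, was at 77, 107 and 99.7 in C57BL6/J and 18.6, 31.4 and 21.5 in BALBc/J (1.64 ± 0.16 (SE, adjusted p = 8.1e-04)). H2-M2, a class I relative, had its highest level in C57BL6/J after 4 hr of KLA, at 17.7, 82.4 and 455 in C57BL6/J and 12.6, 18 and 48.8 in BALBc/J (1.67 ± 0.42 (SE, adjusted p = 0.0458)), and its difference without the KLA 4 hr pair was 1.01. The main class II genes were above BALBc/J without a call, with H2-Ab1 at 0.80 and the invariant chain gene Cd74 at 0.76. Between the first and last tested H2 genes of chromosome 17 (34075853 to 37620474, mm9) 99 genes were tested, of which 14 were called, with C57BL6/J at the higher level in 2 and BALBc/J in 12. That is 14.1% of the interval, beside 3.72% of all tested genes.

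Interferon-inducible genes contained a few very large differences, most of them toward BALBc/J. Of 10 tested Ifi200 genes 1 was higher in each strain (2 in C57BL6/J and 1 in BALBc/J with limma's voom weights). Ifi202b was at 8.62, 12.8 and 22.4 in C57BL6/J and 829.5, 1238 and 9248 in BALBc/J (-6.47 ± 0.44 (SE, adjusted p = 1.5e-04)), with the most tags after 4 hr of KLA in both strains and every BALBc/J library above every C57BL6/J library. Mnda was at 28.7, 101 and 843 in C57BL6/J and 5.01, 9.96 and 357 in BALBc/J (1.69 ± 0.25 (SE, adjusted p = 0.00561)), with the most tags after 4 hr in both strains. Of 15 tested interferon-inducible GTPases 11 had negative differences, the median was -0.31 and 1 was called, Gbp1, at 14.5, 12.5 and 19 in C57BL6/J and 127, 237 and 9012 in BALBc/J (-4.74 ± 0.90 (SE, adjusted p = 0.0165)). The highest level was that of BALBc/J after 4 hr of KLA, while the C57BL6/J libraries were at 12.5 to 19.0. Without that pair the difference of Gbp1 was -2.97. Close relatives among the Ifi200 and Gbp genes can share tags.

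Of 35 tested antiviral effectors and sensors 3 were higher in BALBc/J and none in C57BL6/J. Among these 35, 28 had negative differences and the median was -0.36, beside -0.08 over all tested genes. An unadjusted p (limma) under 0.05 was found for 18 of them, and for 2209 of all 10715 tested genes. Ifi44 was at 15.6, 15.4 and 313 in C57BL6/J and 307, 238 and 8604 in BALBc/J (-3.89 ± 0.26 (SE, adjusted p = 1.5e-04)), with the most tags after 4 hr of KLA in both strains. H28, its neighbour on chromosome 3, encodes a minor histocompatibility antigen and was at 3.6, 3.78 and 4.58 in C57BL6/J and 119.5, 117 and 2653 in BALBc/J (-4.66 ± 0.73 (SE, adjusted p = 0.00714)). H28 was near the floor in C57BL6/J at all treatments. It was the 1 called gene of 3 tested minor histocompatibility antigens and NKG2D ligands. Slfn4, of the Schlafen family that interferon induces, was at 63.2, 61.9 and 1773 in C57BL6/J and 191, 142 and 8169 in BALBc/J (-1.58 ± 0.22 (SE, adjusted p = 0.00409)). Irf7, the transcription factor of the late interferon response, was at 242, 184 and 6967 in C57BL6/J and 635, 570.5 and 7786 in BALBc/J (-1.03 ± 0.26 (SE, adjusted p = 0.0459)), and its difference was -0.87 without the untreated pair and -0.76 without the KLA 1 hr pair, where it was not called.

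The promoters of Gbp1, H28 and Ifi44 are shown because these genes shared a BALBc/J level after 4 hr of KLA far above that of C57BL6/J. The 250 bases before the start are again from RefSeq on GRCm38.p6, where Gbp1 is listed as Gbp2b and H28 as Ifi44l, and they are the reference sequence of C57BL6/J. Gbp1 is at chr3:142594597-142594846, + strand, H28 at chr3:151762892-151763141, - strand and Ifi44 at chr3:151749911-151750160, - strand. Capitals mark an interferon-response-like pattern, GAAA followed after any 2 bases by GAAA, on either strand.
Gbp1: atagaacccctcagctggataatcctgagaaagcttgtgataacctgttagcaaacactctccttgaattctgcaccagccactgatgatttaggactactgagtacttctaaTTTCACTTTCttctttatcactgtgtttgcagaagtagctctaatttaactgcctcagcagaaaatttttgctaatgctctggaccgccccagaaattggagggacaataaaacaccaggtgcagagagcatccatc
H28: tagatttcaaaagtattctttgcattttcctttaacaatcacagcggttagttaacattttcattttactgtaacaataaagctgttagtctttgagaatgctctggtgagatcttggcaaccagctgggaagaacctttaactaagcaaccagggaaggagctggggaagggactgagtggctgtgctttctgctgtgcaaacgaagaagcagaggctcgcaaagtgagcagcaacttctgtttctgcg
Ifi44: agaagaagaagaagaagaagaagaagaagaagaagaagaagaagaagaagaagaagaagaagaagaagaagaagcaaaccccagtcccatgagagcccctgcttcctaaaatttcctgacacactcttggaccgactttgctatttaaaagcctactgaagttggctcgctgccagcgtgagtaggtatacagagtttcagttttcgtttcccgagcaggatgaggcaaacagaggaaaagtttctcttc
Gbp1 holds 1 match and the other windows hold none, while 2.98% of all 32851 windows hold at least 1. Only this exact pattern was searched, so a window without a match may still hold repeats of GAAA at another spacing. At the starts of H28 and Ifi44, H3K27Ac regions, the acetylation mark of active promoters and enhancers, were listed in BALBc/J alone. They held 55.8 tags untreated and 28.2 after 1 hr of KLA at H28, and 51.8 and 21.8 at Ifi44. No H3K27Ac region was listed at the start of Gbp1 in either strain.

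Hal, Amdhd1 and Arg2, 3 enzymes of amino acid breakdown, were higher in BALBc/J. Of 15 tested genes of arginine, histidine and polyamine metabolism these were the calls, 4 had positive differences and the median was -0.17. The cytosolic arginase gene Arg1 was at 0.34 and not called. Hal, which takes the amino group from histidine, was at 81.4, 78.8 and 53.2 in C57BL6/J and 3637, 3793 and 1049 in BALBc/J (-4.94 ± 0.26 (SE, adjusted p = 4.9e-05), 30.6-fold). Amdhd1, a later enzyme of the same path, was at 6.5, 4.35 and 2.48 in C57BL6/J and 253, 219 and 51.3 in BALBc/J (-3.43 ± 0.32 (SE, adjusted p = 7.0e-04)). In BALBc/J both were lowest after 4 hr of KLA. The pair lie next to each other on chromosome 10, Hal from 92951512 to 92979488 and Amdhd1 from 92986082 to 93002778 (mm9). Arg2, the mitochondrial arginase, was at 17, 63.3 and 83.9 in C57BL6/J and 753, 1584 and 839 in BALBc/J (-4.15 ± 0.29 (SE, adjusted p = 1.5e-04)), and every BALBc/J library was above every C57BL6/J library.

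Among the other large differences toward BALBc/J, Atp6v0e2 was at 5.28, 5.17 and 3.54 in C57BL6/J and 324, 275 and 177 in BALBc/J (-4.16 ± 0.18 (SE, adjusted p = 2.0e-05)). It encodes a subunit of the proton pump that acidifies lysosomes and was the 1 called member of 18 tested, whose median was 0.03. Cadm1, a cell adhesion molecule of the immunoglobulin family, was at 249, 219.8 and 158 in C57BL6/J and 3616, 2855 and 2237 in BALBc/J (-3.73 ± 0.14 (SE, adjusted p = 9.4e-06)). Nnt, the mitochondrial transhydrogenase that C57BL6/J is known to carry in a mutant form, was the 1 called member of 22 tested glutathione and antioxidant genes, at 219, 198 and 137 in C57BL6/J and 486, 386 and 327 in BALBc/J (-1.08 ± 0.15 (SE, adjusted p = 0.0042)). Its call ended with the libraries centred on their medians (-0.98). Beside these genes, the summed mesothelial and fibroblast markers were also higher in BALBc/J, as given above.

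The 6 genes with the most tags among those higher in BALBc/J included Irf7, given above. Il1rn, the secreted antagonist of interleukin 1, was at 3187, 9124 and 26386 in C57BL6/J and 7872, 19840.0 and 40909 in BALBc/J (-1.02 ± 0.15 (SE, adjusted p = 0.00633)). Pltp, a phospholipid carrier of plasma, was at 5256, 4376 and 4490.1 in C57BL6/J and 14201, 12712 and 10186 in BALBc/J (-1.38 ± 0.13 (SE, adjusted p = 7.5e-04)). Ctnnb1, the gene of beta-catenin, was at 6971, 7147 and 4523 in C57BL6/J and 18189, 15497 and 9815 in BALBc/J (-1.20 ± 0.13 (SE, adjusted p = 0.00119)). Both strains had less Ctnnb1 RNA after 4 hr, with the gap kept. Tor3a, of the torsin ATPase family, was at 987, 703 and 6300.1 in C57BL6/J and 2700.1, 1898 and 10340.0 in BALBc/J (-1.19 ± 0.17 (SE, adjusted p = 0.00548)) and Chmp1b, of the membrane-severing ESCRT machinery, at 2394, 2451 and 2129 in C57BL6/J and 4736, 4287 and 7191 in BALBc/J (-1.18 ± 0.19 (SE, adjusted p = 0.00865)). Il1rn was not called without the untreated pair (-0.88) or the KLA 1 hr pair (-0.97), nor Chmp1b without the KLA 4 hr pair (-0.89).

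Most cytokine genes did not differ enough for a call. Of 21 tested 3 were higher in BALBc/J and the median was 0.00. Besides Il1rn these were Lif, a cytokine of the interleukin 6 family, at 6.33, 41.5 and 19.7 in C57BL6/J and 42.5, 130.0 and 53.6 in BALBc/J (-1.41 ± 0.17 (SE, adjusted p = 0.00255)), and Csf3, the granulocyte growth factor, at 4.33, 17.9 and 35.1 in C57BL6/J and 9.41, 118 and 86.1 in BALBc/J (-1.24 ± 0.30 (SE, adjusted p = 0.0398)). Csf3 was at -0.76 and not called without the KLA 1 hr pair.

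Of 26 tested chemokines and chemokine receptors 4 were higher in BALBc/J and none in C57BL6/J, with a median of -0.25. The receptor gene Cxcr4 was at 1846, 1349 and 59.9 in C57BL6/J and 5231, 3261 and 203 in BALBc/J (-1.46 ± 0.14 (SE, adjusted p = 8.6e-04)), lowest after 4 hr of KLA in both strains. Ccl24, which attracts eosinophils, was at 10.6, 21.8 and 96.7 in C57BL6/J and 93, 142 and 121 in BALBc/J (-1.62 ± 0.36 (SE, adjusted p = 0.0305)), and Ccl8, another chemokine, at 14.8, 20.2 and 40.2 in C57BL6/J and 88.2, 79.5 and 82.1 in BALBc/J (-1.48 ± 0.22 (SE, adjusted p = 0.00614)). For Ccl24 the strains were close after 4 hr, and its call ended with voom weights (limma, adjusted p = 0.0588), without the filter (0.139) and with 50 tags added in place of 10 (-0.96). Cx3cr1, the fractalkine receptor, was low, at 10.3, 13.1 and 2.45 in C57BL6/J and 55.1, 34.8 and 7.39 in BALBc/J (-1.04 ± 0.23 (SE, adjusted p = 0.0296)), and was not called without the untreated pair (-0.72).

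Receptors of the innate system differed in their number of calls by list. None of 19 tested Toll-like receptors and adaptors was called by limma, and none with limma's voom weights. An unadjusted p (limma) under 0.05 was found for 3 of the 19, and for 2209 of all 10715 tested genes. The median of the 19 was -0.18, and the members farthest from 0 were Tlr9 (0.87 ± 0.29) and Cd14 (-0.76 ± 0.16). Tlr9 was at 115, 49.7 and 41.8 in C57BL6/J and 42.6, 11.6 and 45.4 in BALBc/J, and without the KLA 4 hr pair its difference was 1.36 and was called. Of 20 Fc and paired immunoglobulin-like receptors 5 were higher in BALBc/J and 1 in C57BL6/J (median -0.12). The activating receptor gene Lilra5 was at 9.86, 10.8 and 4.95 in C57BL6/J and 80.4, 83.7 and 40.4 in BALBc/J (-2.04 ± 0.17 (SE, adjusted p = 3.9e-04)), and Pira6 at 8.27, 8.63 and 10.2 in C57BL6/J and 79.3, 69.2 and 29.4 in BALBc/J (-1.78 ± 0.26 (SE, adjusted p = 0.00509)). Cd300ld ran the other way, at 2136, 1899 and 852 in C57BL6/J and 704, 572 and 323 in BALBc/J (1.56 ± 0.14 (SE, adjusted p = 6.8e-04)). Fcgrt, the neonatal Fc receptor gene, was at 486, 394 and 267 in C57BL6/J and 1038, 1057 and 486 in BALBc/J (-1.11 ± 0.16 (SE, adjusted p = 0.00526)) and was not called without the KLA 1 hr pair (-0.96). The Pira genes are near copies that can share tags.

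Of 17 C-type lectin receptor genes 1 was higher in each strain (median 0.39), and with the libraries centred on their medians 3 were higher in C57BL6/J and none in BALBc/J. Clec1b was at 48, 62.6 and 27.8 in C57BL6/J and 17.4, 20.3 and 7.05 in BALBc/J (1.16 ± 0.16 (SE, adjusted p = 0.00359)). Klrk1, the NKG2D receptor gene, was at 5.27, 2.92 and 166 in C57BL6/J and 13.1, 11.2 and 619 in BALBc/J (-1.05 ± 0.25 (SE, adjusted p = 0.0389)), and its difference without the KLA 4 hr pair was -0.65, not called, nor was it with centring (-0.95). Of 14 inflammasome genes Nlrp1b was called, at 8.49, 14 and 3.29 in C57BL6/J and 36, 34.4 and 26.1 in BALBc/J (-1.21 ± 0.17 (SE, adjusted p = 0.0051)), and centring or voom weights added 1 call in the other direction. Of 17 TGF-beta family genes 2 were higher in each strain (median -0.17), against 2 in C57BL6/J and 1 in BALBc/J with centring and 2 and 4 with voom weights. Beside the ligands Gdf15 and Gdf3 these were the receptor gene Tgfbr2, at 2537, 1837 and 519 in C57BL6/J and 5183, 3198 and 1453 in BALBc/J (-1.10 ± 0.16 (SE, adjusted p = 0.00573)), and the activin antagonist gene Fst, at 4.84, 4.14 and 24 in C57BL6/J and 11.1, 17.3 and 116 in BALBc/J (-1.12 ± 0.25 (SE, adjusted p = 0.0329)). Without the KLA 4 hr pair neither was called, at -0.91 for Tgfbr2 and -0.73 for Fst.

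Genes of alternative activation, the state that interleukin 4 promotes, were called in both directions. Of 12 tested 1 was higher in C57BL6/J and 2 in BALBc/J (median -0.14), and the larger count turned to C57BL6/J with centring (3 and 2) and with voom weights (2 and 1). Chi3l3, a chitinase-like protein, was at 76.3, 77.6 and 73 in C57BL6/J and 28.4, 40.5 and 28.3 in BALBc/J (1.03 ± 0.16 (SE, adjusted p = 0.00782)), and its difference was under 1 without the untreated pair (0.95) or the KLA 4 hr pair (0.98). The transcription factor gene Irf4 was at 37.2, 101 and 24.5 in C57BL6/J and 217, 216 and 113 in BALBc/J (-1.71 ± 0.23 (SE, adjusted p = 0.00411)), and Ccl24 is given with the chemokines.

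The spread of the strain difference over the 3 treatments varied between genes, and the genes below were picked for it. Whether a difference changed with treatment was not tested. Cd5l, Mamdc2, Aoah and B3gnt3 were the called genes higher in C57BL6/J whose differences varied least. Cd5l differed by 2.55, 2.55 and 2.53 and Mamdc2, which belongs by name to the MAM domain proteins, by 2.41, 2.43 and 2.38. Aoah, the enzyme that inactivates lipopolysaccharide, differed by 1.40, 1.33 and 1.31, from 152, 147 and 301 in C57BL6/J and 51.3, 52.3 and 115 in BALBc/J. Higher in BALBc/J with the steadiest gap were Aig1 (-1.29, -1.22 and -1.22), the small Maf factor gene Mafk (-1.18, -1.08 and -1.11), Nbl1 (-1.23, -1.30 and -1.34) and Armcx2 (-1.26, -1.19 and -1.31).

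At the other end, Gbp1 differed by -2.49, -3.45 and -8.28, H28 by -3.25, -3.21 and -7.51 and Ifi202b by -5.49, -5.77 and -8.16, so that in all 3 the gap was widest after 4 hr of KLA. H2-M2 was widest apart there as well (0.30, 1.72 and 2.98). Other genes were closest at 4 hr: Arhgap19 differed by 3.74, 4.13 and 0.08, Gfod1 by 3.12, 3.00 and 0.63, 2610035D17Rik by 2.85, 2.81 and 0.18 and the sulfotransferase gene Chst10 by -4.27, -4.19 and -0.61. Chst10 was at 1.35, 0.84 and 2.41 in C57BL6/J and 209.6, 188 and 8.95 in BALBc/J, and Gfod1 at 144, 124 and 13 in C57BL6/J and 7.68, 6.75 and 4.86 in BALBc/J. In these the higher strain had its lowest level after 4 hr. Over all called genes the median difference was 1.52, 1.54 and 1.36 in the C57BL6/J set and -1.39, -1.37 and -1.36 in the BALBc/J set. The difference was widest after 4 hr in 52 of 129 and 112 of 270 genes.

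**Figure D3:**
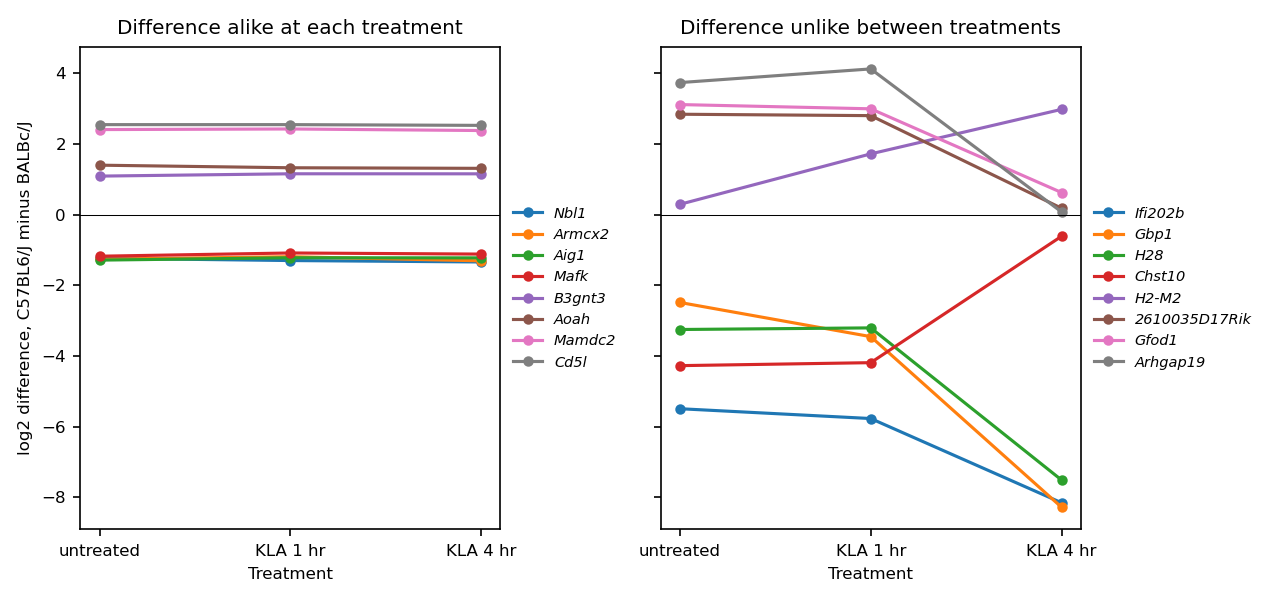
The strain difference (vertical axis, log2, C57BL6/J minus BALBc/J) is drawn at each treatment (horizontal axis) for the called genes whose difference varied least (left, 4 in each direction) and most (right, 4 in each direction), 1 line per gene. On the right, Gbp1 goes from -2.49 to -8.28 and Arhgap19 from 3.74 to 0.08, while Cd5l on the left stays between 2.53 and 2.55.

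Some called genes were neighbours. There were 16 runs of at least 3 called genes with gaps of at most 500 kb, holding 68 of the 399. Runs were built from called genes and end at called genes. The called shares inside them are thus high by construction, beside 3.72% of all tested genes. How many such runs the spacing of genes alone would give was not tested. The longest was in the histocompatibility region, with 13 called of 73 tested genes, 11 of them higher in BALBc/J. A run on chromosome 7 between Pira7 and Ccdc106 had 7 of 30. The run from Hebp2 to Perp on chromosome 10 had 3 tested genes, these ends included, and all were called higher in BALBc/J. Hebp2, which belongs by name to the haem-binding proteins, was at 17.5, 14.4 and 10.7 in C57BL6/J and 97.1, 89.3 and 43.4 in BALBc/J (-1.78 ± 0.19 (SE, adjusted p = 0.00106)), and D10Bwg1379e at 16.1, 14.9 and 3.69 in C57BL6/J and 188, 113 and 72.9 in BALBc/J (-2.61 ± 0.18 (SE, adjusted p = 1.5e-04)). Perp was at 4.3, 4.71 and 4.14 in C57BL6/J and 52.9, 50.5 and 12.6 in BALBc/J (-1.62 ± 0.28 (SE, adjusted p = 0.0112)).

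The serpins, inhibitors of proteases, lay in 2 such runs, where every called gene was higher in BALBc/J. The run on chromosome 12 had 4 called of 6 tested genes, among them Clmn, which is not a serpin. The run on chromosome 13 had 3 called of 4 tested genes. On chromosome 12 Serpina3g was at 28, 30.5 and 557 in C57BL6/J and 74.7, 109 and 2349 in BALBc/J (-1.59 ± 0.20 (SE, adjusted p = 0.00254)) with the most tags after 4 hr of KLA in both strains. Serpina3h was at 0.302, 1.75 and 4.11 in C57BL6/J and 23.8, 24 and 178 in BALBc/J (-2.33 ± 0.38 (SE, adjusted p = 0.00901)) and Serpina3n at 5.52, 2.09 and 14.1 in C57BL6/J and 21.9, 19.9 and 61.5 in BALBc/J (-1.31 ± 0.17 (SE, adjusted p = 0.00335)). On chromosome 13 Serpinb6b was at 53.7, 78.7 and 97.9 in C57BL6/J and 211, 255 and 255 in BALBc/J (-1.56 ± 0.16 (SE, adjusted p = 0.00119)), Serpinb9b at 32.2, 48.1 and 56.2 in C57BL6/J and 117, 133 and 113 in BALBc/J (-1.26 ± 0.18 (SE, adjusted p = 0.00503)) and Serpinb1c at 18.4, 11.2 and 5.36 in C57BL6/J and 56.9, 72.3 and 21.4 in BALBc/J (-1.41 ± 0.21 (SE, adjusted p = 0.00558)). The clustered serpin genes are close relatives and can share tags.

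Directions differed between neighbours in some runs and were shared in others. On chromosome 6 Atp6v0e2 was higher in BALBc/J, while the zinc finger genes Repin1 (368, 259 and 172 in C57BL6/J and 154, 82.7 and 87 in BALBc/J, 1.22 ± 0.17 (SE, adjusted p = 0.00481)) and Zfp775 (1.15 ± 0.16 (SE, adjusted p = 0.00407)) beside it were higher in C57BL6/J. On chromosome 3 the antigen-presenting molecule gene Cd1d1 (91.6, 77.2 and 69.8 in C57BL6/J and 41, 32.6 and 14.8 in BALBc/J, 1.24 ± 0.19 (SE, adjusted p = 0.0065)) and the Fc receptor-like gene Fcrls (35.4, 35.4 and 25.4 in C57BL6/J and 6.73, 6.41 and 4.87 in BALBc/J, 1.39 ± 0.16 (SE, adjusted p = 0.00173)) near Cd5l were all higher in C57BL6/J. On chromosome 15 Ndrg1, a gene known for induction by low oxygen, was at 697, 619 and 507 in C57BL6/J and 2369, 2416 and 1910.1 in BALBc/J (-1.86 ± 0.14 (SE, adjusted p = 2.1e-04)). It lay in a run of 3 called genes, 1 higher in C57BL6/J and 2 in BALBc/J.

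The rule for named genes picked 115 called genes, and some calls ended when the fit was changed. Without the filter on low values 28 ended, at adjusted p of 0.0533 to 0.176 (limma), among them those of 2610035D17Rik, Arhgap19, Ccl24, Ccl8, Cd1d1, Chi3l3, Chmp1b, Chst10, Csf3, Cx3cr1, Fst, Gbp1, Gfod1, H2-M2, H28, Il1rn, Irf7, Klrk1, Mertk, Mnda, Perp, Pira6, Serpina3h, Serpinb1c, Slamf7 and Zfp775. With 50 tags added in place of 10, which shrinks the difference of low genes, 46 ended, among them 17 of those just named (2610035D17Rik, Ccl24, Ccl8, Cd1d1, Chi3l3, Csf3, Cx3cr1, Fst, H2-M2, Irf7, Klrk1, Mnda, Perp, Pira6, Serpina3h, Serpinb1c and Zfp775) and Alad, Armcx2, B3gnt3, Clec1b, Fcrls, H2-DMb1, H2-Q2, Hebp2, Lif, Lilra5, Nbl1, Nlrp1b, Nnt, Repin1, Serpina3n and Serpinb9b. Centring ended 9 calls, among them Cx3cr1, Il1rn, Irf7, Klrk1, Nnt and Tgfbr2. Irf7 was the least steady, with 9 settings besides the one without a treatment term that ended its call. All 115 kept their sign.

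The same strains had nascent RNA measured by GRO-Seq, which reads RNA still held by the polymerase, in 1 untreated and 1 KLA 1 hr library each. The design asks whether a difference in mature RNA was also present in RNA being made. Of 9121 genes tested there with the same rule 39 (0.428%) were higher in C57BL6/J and 44 (0.482%) in BALBc/J. Of the 129 genes higher in C57BL6/J in mature RNA 76 could be tested in GRO-Seq, 21 were called in the same direction and 63 had the same sign. Of the 270 higher in BALBc/J 100 could be tested, 25 were called in the same direction and 95 had the same sign. None was called in the opposite direction. The signs over all 8401 genes tested in both assays were not counted, so the same-sign numbers have no background beside them. The median nascent difference was 0.62 where the median mature difference of the same genes was 1.45, and -0.80 where it was -1.28. The genes were picked for a mature difference of at least 1 and not for a nascent one, so these medians are not on equal terms. The added 10 tags also shrink the nascent difference of genes with few GRO-Seq tags. Exons held only 7.38 to 9.83% of the GRO-Seq tags, and with 1 residual degree of freedom the p-values rest on a spread pooled over genes.

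Hal had 12.4 and 2.19 in C57BL6/J and 281 and 106 in BALBc/J GRO-Seq tags (untreated and KLA 1 hr), a difference of -3.47 ± 0.36 (SE, adjusted p = 1.6e-18). Cadm1 had 18.2 and 15.5 in C57BL6/J and 147 and 129 in BALBc/J (-2.46 ± 0.36 (SE, adjusted p = 6.7e-09)) and D10Bwg1379e 3.22 and 2.77 in C57BL6/J and 82.3 and 40.6 in BALBc/J (-2.39 ± 0.27 (SE, adjusted p = 8.3e-16)). Cacna1a, a calcium channel subunit, had 76.4 and 47.1 in C57BL6/J and 426 and 373 in BALBc/J (-2.54 ± 0.33 (SE, adjusted p = 7.8e-12)), beside 19.6, 15.8 and 10.4 in C57BL6/J and 176, 112 and 56.7 in BALBc/J in RNA-Seq (-2.20 ± 0.20 (SE, adjusted p = 6.8e-04)). Its nascent and mature differences were thus of like size, though the gap between them was not tested. Ifi202b had 0.276 and 3.64 in C57BL6/J and 23 and 71.3 in BALBc/J (-2.13 ± 0.23 (SE, adjusted p = 3.9e-17)), and H2-Ea-ps 0.102 and 0.104 in C57BL6/J and 20.5 and 20.1 in BALBc/J (-1.58 ± 0.16 (SE, adjusted p = 2.2e-18)), both low in tags, where the added 10 tags shrink the difference. Hal, Cadm1, D10Bwg1379e, Ifi202b and H2-Ea-ps were under 20 GRO-Seq tags in every C57BL6/J library. They thus entered that test through BALBc/J alone, the strain where they were high.

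Toward C57BL6/J, Mid1, a ubiquitin ligase gene of the X chromosome, had 582 and 636 in C57BL6/J and 43.1 and 95.6 in BALBc/J GRO-Seq tags (3.04 ± 0.32 (SE, adjusted p = 2.2e-18)), beside an RNA-Seq difference of 1.75 ± 0.16 (143, 126 and 174 in C57BL6/J and 35.1, 36.3 and 37.7 in BALBc/J). G530011O06Rik lies inside Mid1 on the other strand and had 2.71 ± 0.34 (SE, adjusted p = 1.2e-12), and strand assignment of the tags is not stated, so the pair cannot be told apart. Mamdc2 had 265 and 156 in C57BL6/J and 51.1 and 27.7 in BALBc/J (2.15 ± 0.35 (SE, adjusted p = 2.7e-07)), beside 6127, 5110.5 and 3317 in C57BL6/J and 1144, 941 and 627 in BALBc/J in RNA-Seq (2.41 ± 0.13 (SE, adjusted p = 5.4e-05)). Mertk had 289.7 and 131 in C57BL6/J and 85.6 and 22.8 in BALBc/J (1.88 ± 0.34 (SE, adjusted p = 2.1e-05)). C1qb, C1qc and C1qa were called in GRO-Seq too, at 1.57, 1.17 and 1.05, each below the mature difference. In the BALBc/J GRO-Seq libraries these genes held 11.7 to 15.7 tags, under the minimum of the filter. The C1q genes thus entered that test through C57BL6/J alone, the strain where they were high. Lpl (1.34 ± 0.28 (SE, adjusted p = 6.1e-04)), Alas1 (1.32 ± 0.33 (SE, adjusted p = 0.00913)) and Abca1 (1.33 ± 0.27 (SE, adjusted p = 3.6e-04)) were called as well. C5ar1 (0.80 ± 0.32 (SE, adjusted p = 0.409)) and Gdf15 (0.56 ± 0.35 (SE, adjusted p = 0.712)) were not. Nnt was at -0.06 ± 0.33 (SE, adjusted p = 0.964).

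**Figure D4:**
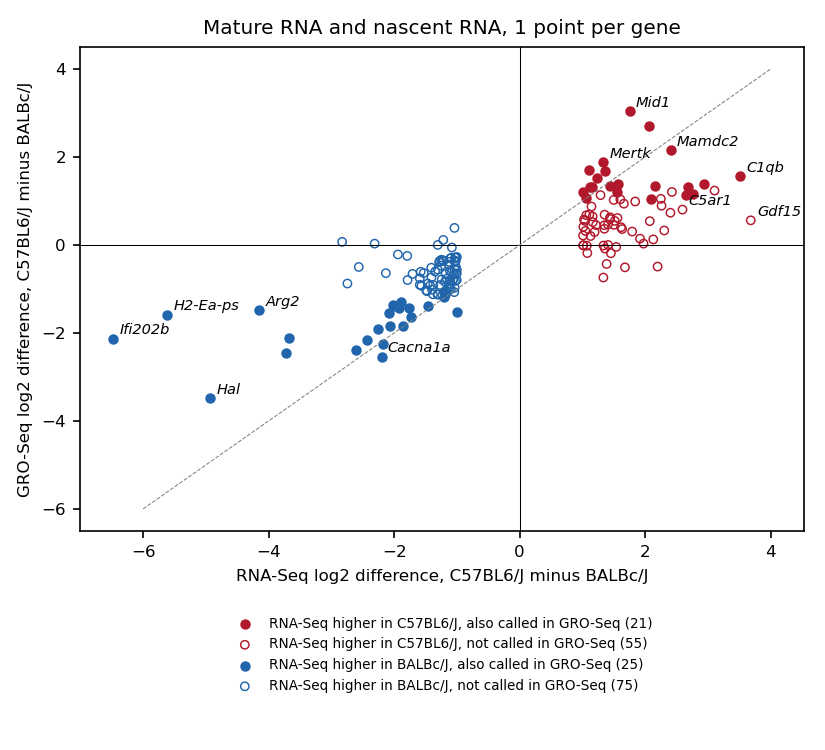
Each point is a gene called in RNA-Seq and tested in GRO-Seq, with the RNA-Seq difference on the horizontal and the GRO-Seq difference on the vertical axis (both log2, C57BL6/J minus BALBc/J), and the dashed line marks equal values. Filled points, 21 red and 25 blue, were also called in GRO-Seq in the same direction, and most points lie nearer to 0 in GRO-Seq than in RNA-Seq, with Mid1 (3.04 against 1.75) as an exception. The genes were picked for their RNA-Seq difference, which by itself places points nearer to 0 in GRO-Seq.

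The design also gives promoter marks of the same strains, untreated and after 1 hr of KLA, as 1 region list per strain and treatment. Of the 129 genes higher in C57BL6/J 59 had an H3K27Ac region within 1000 bp of the start in all 4 lists, 8 (6.20%) in both C57BL6/J lists and no BALBc/J list, and none the reverse. Of the 270 genes higher in BALBc/J 80 had one in all lists, 18 (6.67%) in both BALBc/J lists alone, and none in C57BL6/J alone. Among the 10316 genes not called, 8306 had one in all lists, and 36 (0.349%) and 71 (0.688%) in one strain alone. No region was listed for 30 of the 129, 119 of the 270 and 887 of the 10316 genes. Where all lists had a region, the median log2 ratio of tags per kb, C57BL6/J over BALBc/J, was 0.48 at genes higher in C57BL6/J, -0.07 at genes higher in BALBc/J and 0.20 at genes not called. These are descriptions of single libraries, with no test, and a region is listed only where the authors' caller found one.

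Values at single genes follow, as tags per region that are not divided by the region's length, which differed between lists. At Plekhg1 the region held 296 and 148 tags in C57BL6/J and none was listed in BALBc/J. At C1qa a C57BL6/J region of 1227 tags, which also covered the starts of C1qb and C1qc, was listed untreated and one of 96.8 after KLA, and none in BALBc/J at the C1qa start. In BALBc/J untreated regions of 18.6 tags were listed at C1qb and 50.5 at C1qc, and none after KLA. After KLA those starts held 268 and 252 tags in C57BL6/J. At Mamdc2 the regions held 802 and 648 tags in C57BL6/J and 190.0 and 222 in BALBc/J, with a log2 ratio of tags per kb of 1.06. In the other direction, Colec12 had 177 and 96.1 tags in BALBc/J and Cacna1a 171 and 126, with no C57BL6/J region at either. Hal had a region in every list, with 266 and 101 tags in C57BL6/J and 640.5 and 766 in BALBc/J. The Hal regions spanned 5147 and 1901 bp in C57BL6/J and 14767 and 6265 bp in BALBc/J. Their log2 ratio of tags per kb was -0.47, so much of the gap in tags lay in region length. Vill and Ifi202b had no H3K27Ac region at the start in any list.

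H3K4me2, which marks promoters and enhancers whether active or not, was listed for both strains at most called genes. All 4 lists had a region at 99 of the 129, 196 of the 270 and 9714 of the 10316 genes, and 3 and 5 of the called genes had one in the higher strain alone. In the lower strain alone it was listed at 1 and 2 of them, and among the genes not called at 15 (0.145%) in C57BL6/J alone and 19 (0.184%) in BALBc/J alone. At Ifi202b regions were listed in BALBc/J only, and they were weak. They held 32.7 tags untreated and 18.2 after 1 hr of KLA, beside medians of 154.1 and 149.9 over those lists.

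PU.1 peaks present in both lists of one strain, with no peak of the other strain within 100 bp of the centre, numbered 3017 in C57BL6/J and 4043 in BALBc/J. One of the C57BL6/J set lay within 10 kb of the start of 21 (16.3%) of the genes higher in C57BL6/J, 8 (2.96%) of those higher in BALBc/J and 924 (8.96%) of the genes not called. One of the BALBc/J set lay there for 10 (7.75%), 50 (18.5%) and 983 (9.53%). Mamdc2 had 2 peaks of the C57BL6/J set, C5ar1 had 1 of each set, Cadm1 had 2 and Chst10 3 of the BALBc/J set. Hal, Ifi202b, Ifi44 and Colec12 had 1 of the BALBc/J set each. Peaks absent from a list may lie just under its threshold.

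**Figure D5:**
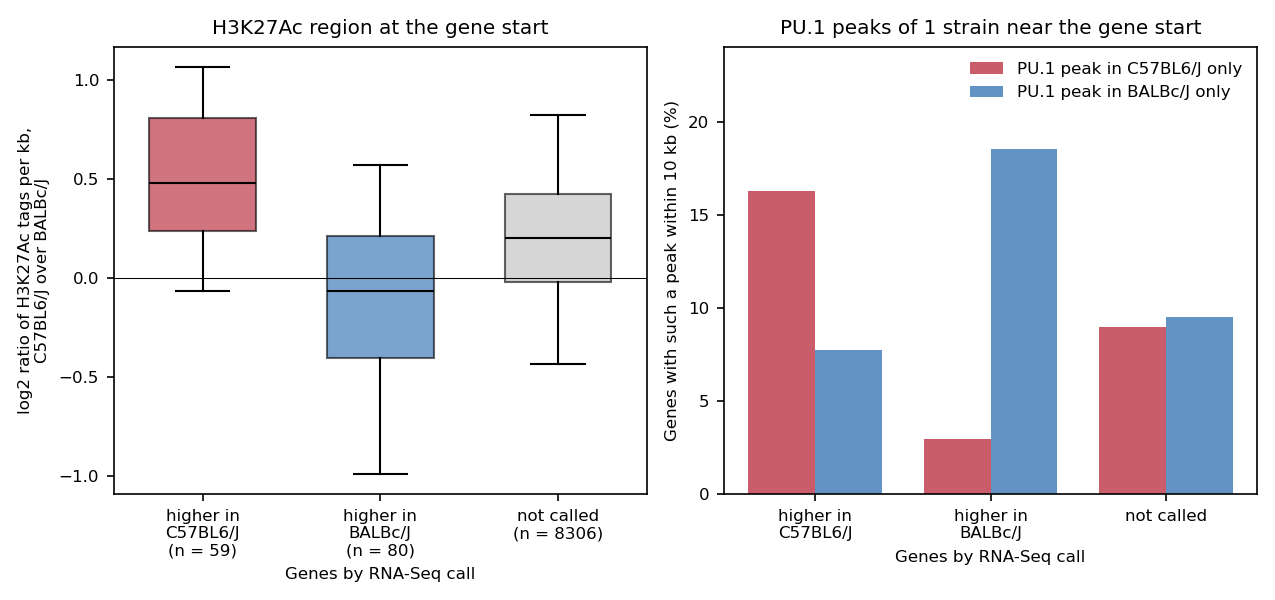
On the left, boxes show the log2 ratio of H3K27Ac tags per kb at the gene start, C57BL6/J over BALBc/J and averaged over untreated and KLA 1 hr, for genes with a region in all 4 lists (line, median, box, 25th to 75th percentile, whiskers, 5th to 95th percentile). On the right, bars show the percent of genes with a PU.1 peak of one strain alone within 10 kb of the start, which is 16.3% and 7.75% for genes higher in C57BL6/J and 2.96% and 18.5% for genes higher in BALBc/J.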

How the data were processed

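The submitters' processing notes name Bowtie 0.12.7, HOMER and build mm9. Expression values were deposited by the authors as log2 values, per the file headers, where 1 is added to a transcript's exon tags after scaling each library to 10 M (M for mega). Taken back to tags of the library, low RNA-Seq values held a fractional part averaging 0.50 of a tag above the whole number. Peak and region lists hold a tag signal per 10 M, called by the authors per sample. Here values were taken back to tags, 10 was added and log2 taken, and limma 3.58.1 in R 4.3.3 fitted strain with treatment as a term (trended eBayes, Benjamini-Hochberg over the 10715 RNA-Seq or 9121 GRO-Seq genes). RNA-Seq libraries held 16.98 to 20.26 M tags, GRO-Seq libraries 39.4 to 48.3 M. Tags are not unique molecules, as no molecular identifiers are described. The fit was tested on simulated data with known differences. Genes named were the 12 largest and 6 most abundant calls per direction, the 4 with the steadiest, most variable and largest GRO-Seq differences, up to 4 calls per list (2 values where none) and up to 3 per run; 1 of these is not reported here. The members and lists were chosen with earlier results of these data known. NF-kB p65, C/EBPa, input, CB6F1/J F1 Hybrids and NOD/ShiLtJ samples were not analysed here.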

Additional observations from a re-analysis of the deposited data

Results flagged for a closer look

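No strain difference of a named gene lay at or beyond 1 on the log2 scale in opposite directions at different treatments. Every called gene had the same sign at the 3 treatments, the same pairs on which its call rests.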

How the results depend on the processing

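Of 399 called genes, 129 were higher in C57BL6/J and 270 in BALBc/J. With a pseudocount of 50 in place of 10 these counts were 60 and 110, without a treatment term 18 and 29, and with a minimum of 100 tags in 2 libraries 72 and 145, where fewer genes were tested. A pseudocount of 2 gave 407 genes higher in BALBc/J, and limma's voom weights on whole tags, chosen after seeing the data, gave 425. Leaving out 1 treatment pair gave 147 to 162 genes for C57BL6/J and 283 to 326 for BALBc/J. The other settings (no filter, a mean of 20 tags, centring, quantile normalization, the longest transcript, no trend, and genes with 1 genomic copy, added after seeing the data) kept both counts within 1.5 times, and no named gene changed sign under any setting. The 46 genes called in the same direction in RNA-Seq and GRO-Seq became 17 with a pseudocount of 50, and kept their number within 1.5 times with a pseudocount of 2 or centring. The cause of these moves was not tested. No paired analysis was possible because the RNA-Seq libraries carry no replicate numbers (only p65 libraries do, which enter no test here), beyond the matching of strains by treatment that the fit already has and that the fit without a treatment term leaves out. With 1 library per strain and treatment, the fit assumes that the strain difference is alike at all treatments, so genes whose difference varied between treatments have large errors. Depth limits genes near 20 tags per 10 M, where the added 10 tags shrink a difference.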
